A study of Mus musculus with 6 samples.

Results

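A set of genes with large rises in *Khsrp*-/- neocortex, taken from the named probes, was examined. Other named genes rose as much or more. They are *Vmn1r198*, *Zscan4e*, *Tnn*, *Nphs1*, *Fam71f1* and *1700001J03Rik*, which are 6 of the 1714 genes that could be named on the arrays. All 6 were selected on the comparison of *Khsrp*-/- with wild type arrays described here, so the size of their rise in that comparison is a description and was not tested. Neocortex RNA came from adult male mice, 3 *Khsrp*-/- (labelled KHSRP-KO) and 3 wild type littermates (labelled WT), with 1 array of 1 colour for each mouse. The *Khsrp*-/- mice lack the gene in all cells and had been crossed to C57Bl/6 mice. The RNA was depleted of rRNA and labelled from oligo(dT) and random primers. The level of *Khsrp* was not analysed here, and genotypes were taken from the labels alone.

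KHSRP is an RNA-binding protein that recognises AU-rich elements in mRNAs and promotes their decay. Except for *1700001J03Rik*, the 6 genes are best known outside the neocortex. *Vmn1r198* belongs to the V1R receptors, G protein-coupled receptors with which sensory neurons of the vomeronasal organ detect pheromones. *Zscan4e* belongs to a cluster of near-identical zinc finger genes that are switched on in the early embryo when it first transcribes its own genome, and now and then in embryonic stem cells. *Tnn* encodes tenascin-N (tenascin-W), an extracellular matrix glycoprotein best known from developing bone and periosteum. *Nphs1* encodes nephrin, an adhesion protein of the immunoglobulin superfamily in the slit diaphragm between kidney podocytes. *Fam71f1* belongs to a family of Golgi proteins that interact with RAB2 and are known from the testis. *1700001J03Rik* carries only the name of its cDNA clone.

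The genes lie on 5 chromosomes. *Vmn1r198* is on chromosome 13, *Tnn* on chromosome 1, *Fam71f1* on chromosome 6 and *1700001J03Rik* on chromosome 5, while *Zscan4e* and *Nphs1* are both on chromosome 7. None is on chromosome 17, which holds *Khsrp*. The RefSeq reference table lists *Zscan4e* as a pseudogene and the other 5 as protein coding, and the array could not tell *Zscan4e* from its near-identical neighbours where they share the probe's sequence. The promoter sequences of 5 of the 6 genes were available from RefSeq (build GRCm38.p6) and are shown because the genes were higher on the same arrays. Each line gives the 100 bases before an annotated transcription start, read 5′ to 3′, with capitals for any motif that was found.
Vmn1r198, chr13:22354246-22354345, plus strand: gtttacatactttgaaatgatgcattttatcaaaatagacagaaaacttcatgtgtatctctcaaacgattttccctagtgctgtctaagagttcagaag
Tnn, chr1:160153576-160153675, minus strand: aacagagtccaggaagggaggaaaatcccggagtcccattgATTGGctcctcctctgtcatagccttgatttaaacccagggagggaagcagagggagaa
Nphs1, chr7:30459958-30460057, plus strand: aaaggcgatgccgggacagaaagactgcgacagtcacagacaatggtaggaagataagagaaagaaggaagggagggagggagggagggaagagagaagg
Fam71f1, chr6:29319040-29319139, plus strand: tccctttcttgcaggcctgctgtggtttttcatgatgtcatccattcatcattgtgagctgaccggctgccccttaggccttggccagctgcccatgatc
1700001J03Rik, chr5:146185305-146185404, minus strand: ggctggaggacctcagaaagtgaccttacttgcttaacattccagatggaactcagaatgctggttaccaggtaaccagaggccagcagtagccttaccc

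The 250 bases before each start were searched on both strands for the TATA box TATAAA, the CCAAT box, the GC box GGGCGG, the core of the cAMP response element TGACGT and the E box CACGTG. *Tnn* held the only match inside a printed stretch, CCAAT on the opposite strand (ATTGG), whose first base lies 59 bases before the start. CCAAT was present in 33.8% of 32851 mouse promoter windows of the same length. *1700001J03Rik* held TATAAA on the opposite strand, 157 bases before the start and so outside the printed stretch, and 12.4% of all windows held this motif. *Vmn1r198*, *Nphs1* and *Fam71f1* held none of the 5 motifs, and no motif was found in more than 1 of the 5 genes. The GC box, the cAMP element core and the E box, found in 32.7%, 6.47% and 6.02% of all windows, were in none of the 5. The number of CpG in the windows was 1 in *Vmn1r198*, 2 each in *Fam71f1* and *1700001J03Rik*, 4 in *Tnn* and 5 in *Nphs1*, beside a median of 6 and quartiles of 2 and 16 over all windows. A motif match is a description of the letters and not a measured binding site.

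On the *Khsrp*-/- arrays 1, 2 and 3, 82.6%, 71.3% and 76.7% of the 61500 spots that were not controls were well above background, and on the wild type arrays the share was between 77.4% and 79.9%. No spot of any array was saturated. Well above background is a mark that the scanner software sets for each spot. Arrays of the same scan time were taken to lie on 1 slide, since no slide label was used. This gave 3 slides, which held wild type arrays 1 and 2, *Khsrp*-/- arrays 2 and 3, and, on the slide shared by the genotypes, *Khsrp*-/- array 1 with wild type array 3. Under this grouping, only the difference between the arrays of the shared slide is free of a difference between slides, and it is given beside each gene. Signals below are processed intensities as deposited, from which the background had been subtracted. Log2 signals were set relative to the 75th percentile of each array. In whole tissue, a change in RNA per cell cannot be told apart from a change in the number of cells that hold it.

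*Vmn1r198*, the vomeronasal receptor, had a processed signal of 56.2, 76.0 and 30.2 in *Khsrp*-/- mice 1, 2 and 3. Wild type mice 1, 2 and 3 gave 5.31, 3.41 and 5.05. The groups did not overlap, and the lowest *Khsrp*-/- array was array 3. Its spot was well above background on all 3 *Khsrp*-/- arrays and on 0 of 3 wild type arrays. In *Khsrp*-/- neocortex the scaled log2 signal was -2.92 ± 0.66 (SD, n = 3), against -6.70 ± 0.43 (SD, n = 3) in wild type, which differ by 3.78. Because the wild type value is not a measured level, the rise is better given as a bound, and it was at least 3.98-fold. Each such bound sets the *Khsrp*-/- mean against the lowest signal of any probe well above background on each wild type array, or against the gene's own signal where that was higher. It holds for the processed signal and not for other ways of subtracting the background. On the shared slide the difference was 3.35.

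*Zscan4e*, the early embryonic zinc finger gene, was well above background on all 3 *Khsrp*-/- arrays and on 0 of 3 wild type arrays. Its processed signal was 115, 88.6 and 47.8 in the *Khsrp*-/- mice, against 14.7, 3.65 and 11 in wild type. The 3 wild type values spanned 2.04 on the log2 scale, the widest span among the 6 genes, and wild type array 2 was the low one. In *Khsrp*-/- neocortex the scaled log2 signal was -2.28 ± 0.49 (SD, n = 3), against -5.80 ± 1.12 (SD, n = 3) in wild type. The difference was 3.52, and it was 2.88 when wild type array 2 was left out. As a bound, *Zscan4e* was at least 6.20-fold higher in the processed signal, the largest bound among the 5 genes, while the ratio of its mean spot minus local background intensities was smaller, at 4.64. The difference was 3.26 on the shared slide.

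*Tnn*, the tenascin of bone and periosteum, had the most even signal among the 5 genes in *Khsrp*-/- neocortex. It measured 30.3, 24.9 and 30.9 on the *Khsrp*-/- arrays. The wild type values of 3.13, 3.41 and 2.79 were each array's lowest value, with 0% of probes below, so they hold no order and no level. The log2 difference of 3.50 therefore depends on the value that the software gives to such spots. *Tnn* was at least 2.25-fold higher in the processed signal, and the log2 difference on the shared slide was 3.32.

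*Nphs1*, the nephrin gene, had the smallest log2 difference in processed signal of the 6 genes, although its bound was above those of *Tnn* and *Fam71f1*. Its processed signal was 35.5, 27.2 and 36.5 in the *Khsrp*-/- mice, against 10.5, 11.7 and 9.77 in wild type. None of its wild type values was at the lowest value of an array, and they were alike, with an SD of 0.06 on the log2 scale against 0.26 in *Khsrp*-/- neocortex. The log2 difference was 1.92 over all arrays and 1.74 on the shared slide. By the bound *Nphs1* was at least 2.58-fold higher in the processed signal, while the ratio of its mean spot minus local background intensities was smaller, at 1.93.

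*Fam71f1*, the testis gene, was well above background on the 3 *Khsrp*-/- arrays alone. It measured 19.2, 22.4 and 29.1 in the *Khsrp*-/- mice, against 3.13, 3.41 and 3.85 in wild type, of which arrays 1 and 2 were at their lowest value. The log2 difference was 3.04 over all arrays and 2.19 on the shared slide, where *Khsrp*-/- array 1 was the lowest of the 3. In the processed signal it was at least 1.83-fold higher over all arrays and at least 1.26-fold on the shared slide, the smallest bounds among the 5 genes. Its *Khsrp*-/- signals did not exceed the brightest negative control spot on any of these arrays, so that the bound rests on the software's mark.

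*1700001J03Rik* differed from the other 5 in its level. Its processed signal was 685, 441 and 747 in the *Khsrp*-/- mice, against 116, 112 and 122 in wild type, and it was well above background on all 6 arrays. Between 52.4% and 57.7% of probes were dimmer than it on the wild type arrays, and between 77.4% and 82.4% on the *Khsrp*-/- arrays. It is therefore not a gene of low signal in this tissue, and among the 6 it is the one that was well above background in both genotypes. In *Khsrp*-/- neocortex the scaled log2 signal was 0.67 ± 0.41 (SD, n = 3), against -2.0 ± 0.19 (SD, n = 3) in wild type, a difference of 2.67 or 6.38-fold. On the shared slide the difference was 2.36 or 5.14-fold.

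**Figure D1:**
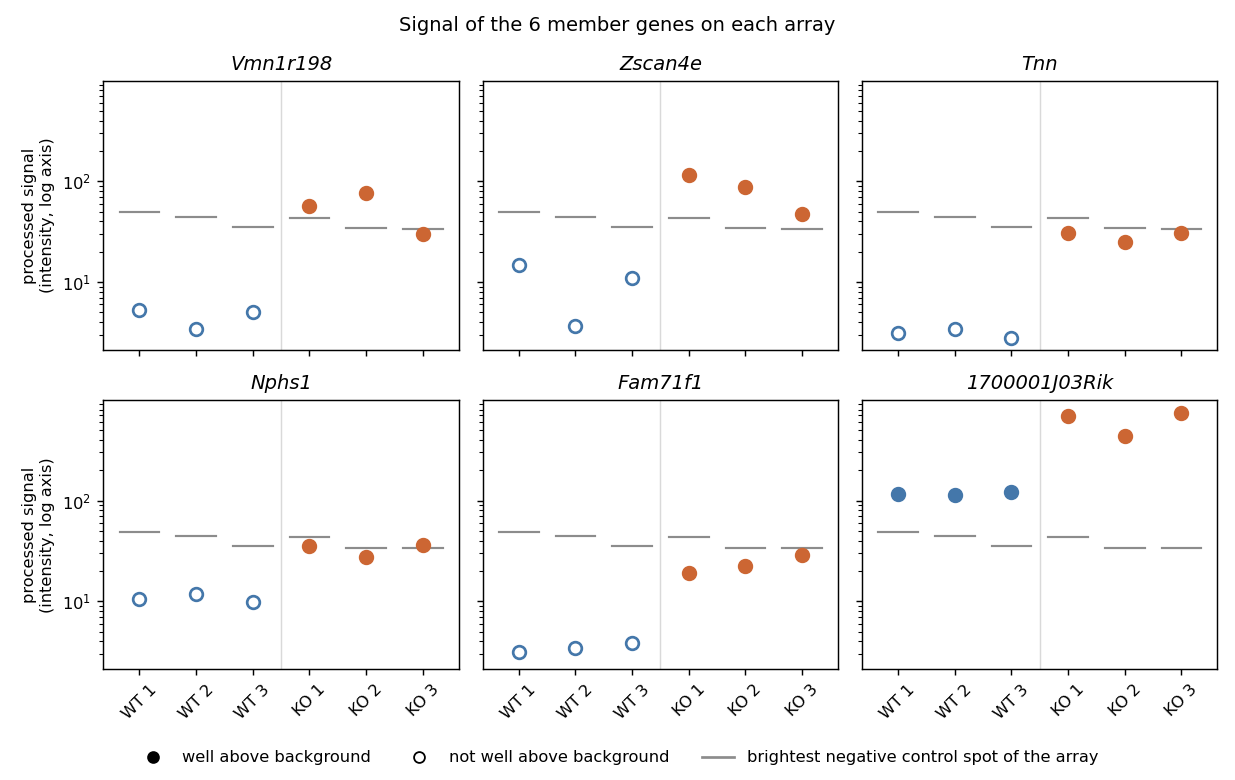
Processed signal (intensity, log axis) of each gene on the 3 wild type (WT) and 3 *Khsrp*-/- (KO) arrays, 1 point for each array. Filled points were well above background, open points were not, and the grey bars mark the brightest negative control spot of each array. Signals of *Tnn*, *Nphs1* and *Fam71f1* in *Khsrp*-/- neocortex lie near or below that bar, and *1700001J03Rik* lies above it on all 6 arrays.

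Because 5 of the genes were dim, their signals were set beside the negative control spots of the same array, which carry probes without a target in the mouse. Each array holds 300 such spots, 20 for each of 15 probes. For *Zscan4e*, 0 negative control spots were as bright on any *Khsrp*-/- array. For *Vmn1r198*, 0 were as bright on *Khsrp*-/- arrays 1 and 2, and 5 of 284 usable spots were on array 3. *Tnn* was matched by 26 of 278, 3 of 284 and 2 of 284 spots on the *Khsrp*-/- arrays, *Nphs1* by 12, 3 and 0, and *Fam71f1* by 37, 7 and 5. The signals of these 3 genes thus lay within the range of the brightest negative control spots on at least 2 of the *Khsrp*-/- arrays. For *1700001J03Rik* no negative control spot was as bright on any of the 6 arrays. The bright negative spots came from 2 of the 15 probes, the same pair on every array. The brighter of these had a median of 26.8 ± 8.65 (SD, n = 3) on the *Khsrp*-/- and 36.9 ± 7.48 (SD, n = 3) on the wild type arrays. Over all arrays those 2 probes were thus not higher on average in *Khsrp*-/- neocortex, in signals not scaled between arrays. On the shared slide they were higher in *Khsrp*-/- neocortex. There the brighter probe had a median of 35.7 on *Khsrp*-/- array 1 against 28.9 on wild type array 3, and the other 30.4 against 24.4.

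Each signal was also set against the error that the scanner software assigned to it. This ratio contains the signal on which the genes were chosen, so it is a description and no separate support. The signal was between 4.91 and 9.81 times its error for the 5 dim genes on the *Khsrp*-/- arrays and between 0.993 and 4.25 times on the wild type arrays. The lowest *Khsrp*-/- ratio was that of *Fam71f1* on array 2, and the highest wild type ratio that of *Zscan4e* on array 1. For *1700001J03Rik* the ratio was between 9.57 and 9.99 on all 6 arrays.

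The spot intensities before any scaling are given as a description, since they belong to the contrast on which the genes were chosen. The median pixel of the spot minus that of its surroundings was 61.0 ± 25.6 (SD, n = 3) against 13.2 ± 2.47 (SD, n = 3) for *Vmn1r198* in *Khsrp*-/- and wild type neocortex. For *Zscan4e* it was 89.7 ± 33.5 (SD, n = 3) against 19.3 ± 4.16 (SD, n = 3). For *Tnn* it was 34.7 ± 4.07 (SD, n = 3) against 10.7 ± 4.93 (SD, n = 3). The ratio of the 2 means was 4.63 for *Vmn1r198*, 4.64 for *Zscan4e*, 3.25 for *Tnn*, 1.93 for *Nphs1*, 2.53 for *Fam71f1* and 5.02 for *1700001J03Rik*. For all 6 genes the lowest *Khsrp*-/- value exceeded the highest wild type value, by between 1.48-fold for *Nphs1* and 3.37-fold for *1700001J03Rik*. The share of all probes without overlap by this measure was not computed, so the count is a description of chosen genes. By this measure *1700001J03Rik* had the largest ratio, whereas on the log2 scale of the processed signal 4 of the dim genes had larger differences.

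The change of the dim genes depended on how low signals were treated. With background correction by normexp and an offset of 50, which adds a constant to every spot, the log2 difference was 1.04 for *Vmn1r198*, 1.23 for *Zscan4e*, 0.74 for *Tnn*, 0.58 for *Nphs1* and 0.59 for *Fam71f1*. That of *1700001J03Rik* was 2.17. For all 5 dim genes the change was then smaller than the bound from the processed signal. With a floor of 5 on the signal, *Tnn* and *Fam71f1* differed by 2.66 and 2.36. The direction was the same under all of these, and the order of the genes was not, since *1700001J03Rik* then had the largest difference under the offset and the next to smallest in the values first given.

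**Figure D2:**
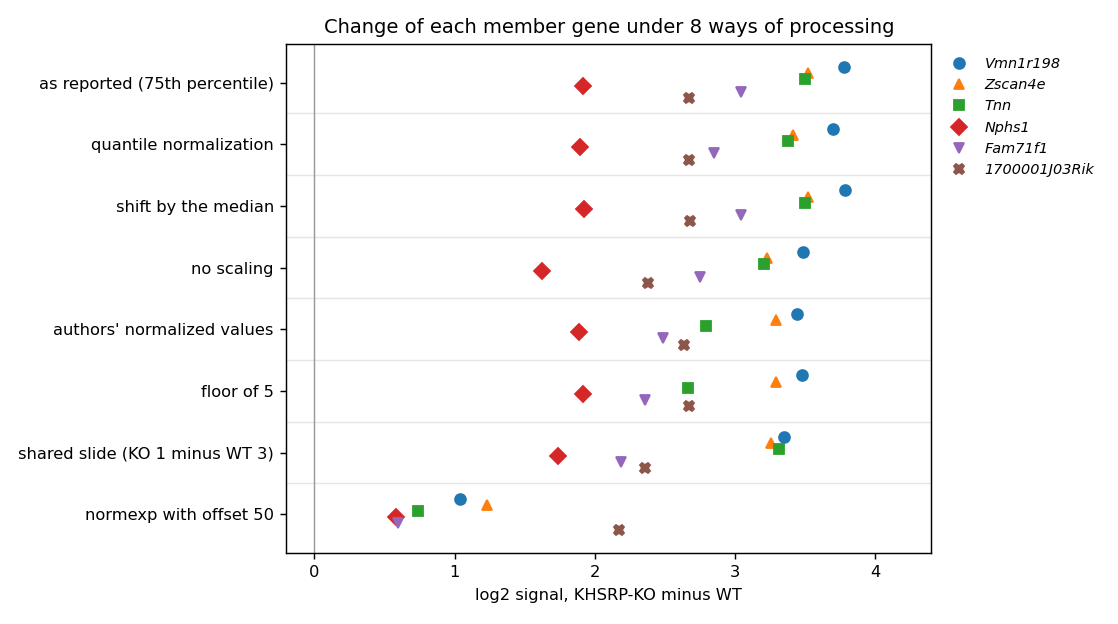
Log2 signal of *Khsrp*-/- minus wild type for the 6 genes (x axis) under 8 ways of processing (rows), 1 symbol for each gene. With the offset of 50 the 5 dim genes lie between 0.58 and 1.23 and *1700001J03Rik* at 2.17, and all symbols lie to the right of 0.

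The local background around the spots was not used to choose the genes and was tested. Around the 6 spots it was between 15 and 26 on the *Khsrp*-/- arrays and between 13 and 20 on the wild type arrays, in units of pixel intensity. It was higher on average in *Khsrp*-/- for 6 of 6 spots, by 3 to 6. The arrays as a whole differed in the same way. Over all spots that were not controls, the median local background was 18, 23 and 21 on *Khsrp*-/- arrays 1, 2 and 3. On wild type arrays 1, 2 and 3 it was 16, 15 and 18. The 6 spots thus share the level of their array and are not separate observations. For *Tnn*, where all *Khsrp*-/- arrays exceeded all wild type arrays, the two-sided exact permutation test gave p = 0.1, the smallest that 3 against 3 arrays allow. The other 5 exact p-values were 0.2 or 0.3, and after Benjamini-Hochberg adjustment over the 6 tests all were 0.3. Between the arrays of the shared slide the difference was between -2 and 1. The processed signal is what remained after the scanner software had subtracted a background. The part of the local background in the differences between genotypes was not tested. Of the 8 spots nearest to each of the 6, between 4 and 7 were not controls and were detected on 3 or more arrays. These had median log2 differences between -0.43 and 0.31, and the largest single difference was 1.07, beside *1700001J03Rik*. Dimmer spots around the 6 were left out.

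**Figure D3:**
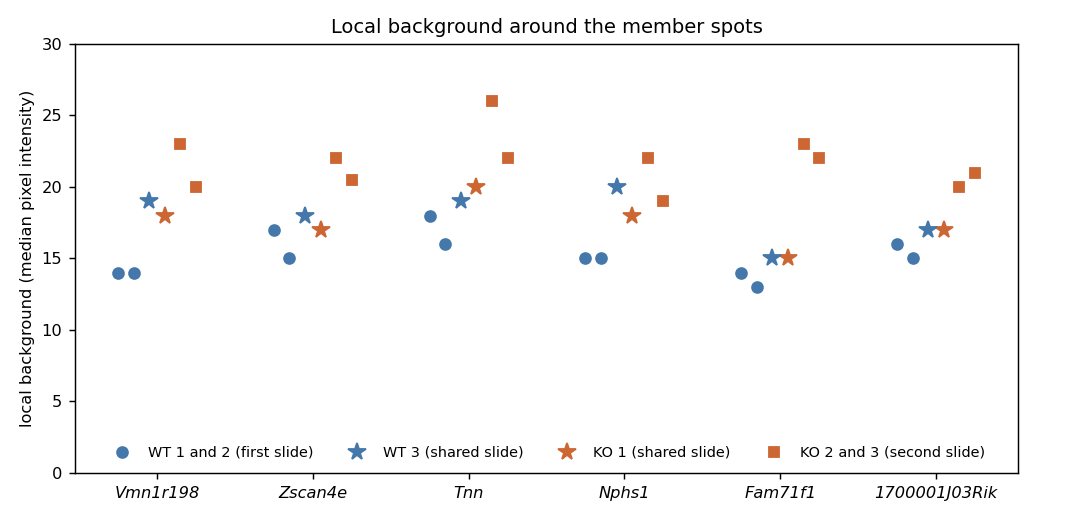
Median pixel intensity of the local background (y axis, from 0) around the spot of each gene, 1 symbol for each array, with wild type in blue and *Khsrp*-/- in orange and the symbol shape giving the slide. *Khsrp*-/- arrays 2 and 3 lie highest for 5 of the 6 genes, and the 2 arrays of the shared slide, drawn as stars, differ by at most 2.

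The genes were next set among all probes. A limma fit covered the 48436 probes detected on 3 or more arrays. Of these 9.26% were higher in *Khsrp*-/- neocortex at an unadjusted p under 0.05 and past the fold threshold of the study, and 6 of the 6 genes were among them. After Benjamini-Hochberg adjustment over all probes 0.0826% were higher, among them 5 of the 6 genes, all but *Zscan4e*. All *Khsrp*-/- arrays exceeded all wild type arrays for 12.4% of 48364 probes and for 6 of the 6 genes. These counts restate how the genes were chosen, and 5 of the genes passed the filter on dim probes only through the *Khsrp*-/- arrays. The median log2 difference was 3.27 over the 6 genes, 1.68 with the 5 dim genes at their bounds, and 0.00 over all probes tested. With the slide as a block in limma, 0 probes were higher after adjustment, beside 1767 at an unadjusted p under 0.05, and the methods' t-test left 1 after adjustment.

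Detection in 1 genotype alone was rare. Among 60825 probes, 95 (0.156%) were well above background on every *Khsrp*-/- array and on no wild type array, and 35 (0.0575%) showed the opposite pattern. *Vmn1r198*, *Zscan4e*, *Tnn*, *Nphs1* and *Fam71f1* were 5 of the 95. This held for the mark well above background only. By the software's other mark, for a signal significantly above the local background, *Tnn* alone among these 5 was unmarked on every wild type array. The counts depended on single arrays. Without *Khsrp*-/- array 2, 3 or wild type array 3 the 95 became 391, 177 and 159, and without *Khsrp*-/- array 1 or 3 or wild type array 2 or 3 the 35 became 1034, 63, 74 and 301. *Khsrp*-/- array 1 had the most probes detected, with 1316 detected on no other array, against 146 to 399 on the other arrays.

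**Figure D4:**
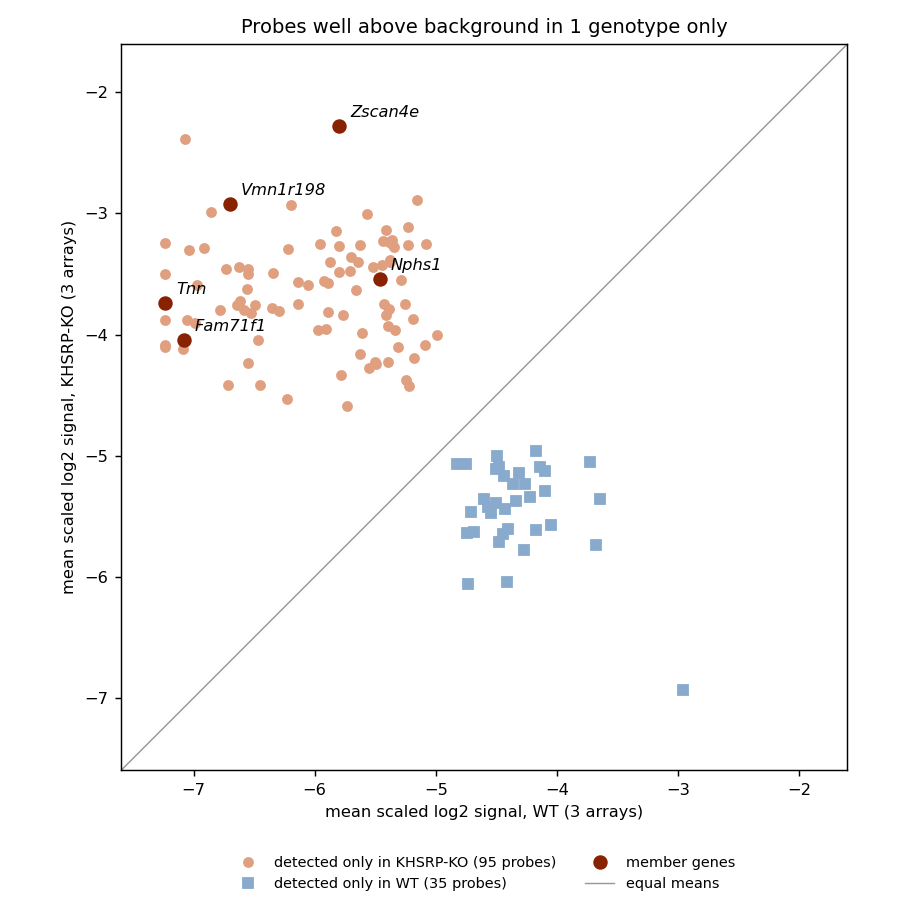
Mean scaled log2 signal in wild type (x axis) and *Khsrp*-/- neocortex (y axis) for the 95 probes detected only in *Khsrp*-/- (orange) and the 35 detected only in wild type (blue), 1 point for each probe, with 5 of the 6 genes in dark red. All 5 lie above the line of equal means, and *Tnn* and *Fam71f1* lie at the left edge, where the wild type signal is at or near its lowest value.

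Of the 95 probes 26 carried a gene name, all from a list selected on these arrays. Leaving out the 5 genes, the named probes with the largest differences were those of *Fam172a*, *Ces2c*, *Vmn2r80*, *Olfr1314* and *Olfr481*. *Ces2c* encodes a carboxylesterase, *Vmn2r80* a vomeronasal receptor of the V2R family, and *Olfr1314* and *Olfr481* odorant receptors. Their log2 differences were 3.10 for *Fam172a*, 3.06 for *Ces2c*, 2.99 for *Vmn2r80*, 2.94 for *Olfr1314* and 2.79 for *Olfr481*, and their bounds were between 2.16-fold and 2.74-fold. These bounds lay below those of *Vmn1r198* and *Zscan4e* and above that of *Fam71f1*, and they overlapped those of *Tnn* and *Nphs1*. On the shared slide the log2 differences were 2.92 for *Fam172a*, 3.15 for *Vmn2r80*, 1.58 for *Ces2c*, 1.65 for *Olfr1314* and 1.51 for *Olfr481*.

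Relatives of the 6 genes could be examined only as far as they were named, and the names come from that same list, so their number in each direction says nothing about a family. Among the V1R receptors, 6 of 373 genes besides *Vmn1r198* were named, 4 higher and 2 lower in *Khsrp*-/- neocortex. The higher ones were *Vmn1r168*, *Vmn1r177*, *Vmn1r199* and *Vmn1r214*, with log2 differences of 2.06, 1.80, 0.79 and 0.73, and of 3.00, 2.58, 0.74 and 0.51 on the shared slide. The lower ones were *Vmn1r234* and *Vmn1r210*, with -1.35 and -0.81, and with -0.22 and -0.07 on the shared slide. Unlike *Vmn1r198*, these 6 were well above background on all 6 arrays. *Vmn1r199* and *Vmn1r210* lie within 500000 bases of *Vmn1r198*, and of these neighbours *Vmn1r199* was higher and *Vmn1r210* lower over all arrays, the latter by little on the shared slide. *Vmn1r199* measured 780, 501 and 840 on the *Khsrp*-/- and 517, 530 and 427 on the wild type arrays, so that its groups overlapped in processed signal. The groups also overlapped for *Vmn1r214* and *Vmn1r210*, and not for *Vmn1r168*, *Vmn1r177* and *Vmn1r234*. No other *Zscan4* gene or gene of the 2-cell embryo, no other tenascin and no other *Fam71* gene was named.

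For *Nphs1*, 2 of the 14 other slit diaphragm and podocyte genes were named. *Synpo*, which encodes the actin-associated protein synaptopodin of podocyte foot processes and dendritic spines, differed by 0.64 on the log2 scale and by 0.45 on the shared slide. *Actn4*, which encodes an actin-crosslinking alpha-actinin, differed by 0.56 and by 0.26 on the shared slide. Both differences were smaller than the 1.92 of *Nphs1*, and for both genes the groups overlapped in processed signal. The 5 named genes within 500000 bases of *Nphs1* were *Cox7a1*, *Zfp568*, *Zfp146*, *Upk1a* and *Ffar3*. Their log2 differences were 0.98 for *Cox7a1*, 0.82 for *Zfp568*, 0.51 for *Zfp146* and 0.45 for *Upk1a*, and 0.40, 0.54, 0.17 and 0.58 on the shared slide. *Ffar3* was well above background on 0 of 3 wild type and 2 of 3 *Khsrp*-/- arrays, and no fold is given. *Gpr52*, an orphan receptor gene, lies near *Tnn* and was also detected only in *Khsrp*-/- neocortex, with signals of 24.3, 46.9 and 20.1 against 14.5, 8.70 and 10.2. *Rbm28* lies near *Fam71f1* and differed by 0.53. Among these neighbours, the groups of *Rbm28*, *Upk1a* and *Ffar3* overlapped in processed signal.

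The named genes whose profile over the 6 arrays was most like the mean profile of the 6 genes were *Zbtb45*, *Xaf1* and *Postn*, with Pearson's r of 0.996, 0.994 and 0.994 over 6 arrays that fall into 2 genotypes. *Zbtb45* encodes a zinc finger protein and *Xaf1* an interferon-inducible factor. *Xaf1* measured 5589, 5998 and 6634 in the *Khsrp*-/- mice, against 50.4, 54.4 and 49.9 in wild type, a log2 difference of 7.17. Of 48364 probes, 531 had an r above 0.95. *Postn* encodes periostin, which like *Tnn* is known from periosteum. It measured 39.1, 29.9 and 28 on the *Khsrp*-/- and 16.8, 16.4 and 17.3 on the wild type arrays.

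The labelled tissue was checked as far as its markers were named. The neuronal genes *Snap25* and *Camk2a* and the astrocyte transporter gene *Slc1a2* were bright on all arrays. *Snap25* was between 16486 and 21823 on the *Khsrp*-/- and between 13300 and 17581 on the wild type arrays, a log2 difference of 0.55, or 0.33 on the shared slide. *Camk2a* went the other way, with 9060 to 12955 against 22386 to 31343 and a log2 difference of -0.86, or -0.92 on the shared slide. *Slc1a2* was between 16554 and 16754 on the *Khsrp*-/- and between 13463 and 17107 on the wild type arrays. Its log2 difference was 0.48, or 0.15 on the shared slide. Markers of tissues in which the genes other than *1700001J03Rik* are best known were also sought. Of these, 0 of 7 for testis and 0 of 4 for olfactory and vomeronasal cells were named. For podocytes 1 of 5 (*Synpo*) was named, and for bone and periosteum 1 of 5 (*Postn*). Of 6 skeletal muscle markers 3 were named and all 3 were higher in *Khsrp*-/- neocortex, *Tnnt3* by 1.40, *Myh1* by 1.23 and *Tnni2* by 0.49 on the log2 scale, and by 0.76, 1.30 and 0.23 on the shared slide. Of all 1788 named probes 1522 came from the list of higher probes, so that this count says little. Markers of blood (0 of 3) and choroid plexus (0 of 3) were not analysed here. The part of other tissues in the signals of the 6 genes was not tested.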

How the data were processed

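Scanner output of 6 arrays (Arraystar lncRNA design, Agilent Feature Extraction 11.0.1.1) was deposited by the authors. The processed signal in it is a deposited intensity after background subtraction, not scaled between arrays, and the other deposited columns are median pixel intensities of spot and surroundings and marks of 0 or 1. The authors also deposited normalized log2 values, whose normalization is not given in the sources used here. Control and outlier spots were left out and replicate spots averaged as log2 signals, giving 60915 probe names. Each array's 75th percentile was then subtracted, since the methods name no scaling. Probes detected (marked well above background) on 3 or more of the 6 arrays went into limma 3.58.1 (lmFit, then eBayes; R 4.3.3), first tested on simulated data, with Benjamini-Hochberg adjustment over all probes. Calls needed a p under 0.05 and a 1.25-fold change or more. Exact permutation tests used scipy 1.17.1, tables pandas 2.3.3 and figures matplotlib 3.10.9.

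The genes and gene lists were chosen with earlier results of these data known. Beyond the 6 genes, the text names relatives and neighbours within 500000 bases that have a named probe, the 3 named probes most like the mean profile, and the 5 named probes with the largest change among those detected only in *Khsrp*-/-. Of several probes for 1 gene, that with the highest mean signal was used. Symbols came only from the authors' supplementary list of changed probes, used as annotation (1788 probes). Its fold changes and p-values were not used. Neighbours and promoters came from RefSeq tables of GRCm38.p6, while the array design is built on another assembly. Coordinates are therefore given for the printed promoter stretches alone, and not for genes or probes.

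As alternatives, arrays were scaled by quantile normalization, by their medians, by the percentile over probes detected on all arrays or not at all. Further alternatives were normexp with an offset of 50 (on median spot intensities), the authors' normalized log2 values, a floor of 5, detection required on all 6 arrays or on none, eBayes with trend and robust variances, the methods' t-test, each array left out, the replicate number and the slide as blocks (statmod 1.5.0), a 1.5-fold threshold and another detection mark. The local background on the shared slide was added after seeing the data. The number of arrays limits the precision. One sample was taken for each mouse, and the labels do not say how far RNA was handled separately.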

Additional observations from a re-analysis of the deposited data

How the results depend on the processing

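All 6 genes were higher in *Khsrp*-/- neocortex under every scaling, correction and block that was tried, and with each array left out. The largest shift came from normexp with an offset of 50, with log2 differences of 1.04 for *Vmn1r198*, 1.23 for *Zscan4e*, 0.74 for *Tnn*, 0.58 for *Nphs1*, 0.59 for *Fam71f1* and 2.17 for *1700001J03Rik*, and a median of 0.89 in place of 3.27. The offset adds a constant to each spot, and the dim genes moved most. With a floor of 5 the difference was 2.66 for *Tnn* and 2.36 for *Fam71f1* (median 2.67), and with the authors' normalized values 2.79 and 2.49 (median 2.71). Without scaling *Tnn* and *Nphs1* differed by 3.21 and 1.63, where the median of all probes was -0.29. With the slide as a fixed block, which leaves the shared slide, they were 3.32 for *Tnn* and 2.19 for *Fam71f1* (median 2.81). With each array left out the difference was 3.42 to 4.07 for *Vmn1r198*, 2.88 to 3.90 for *Zscan4e*, 3.37 to 3.59 for *Tnn*, 1.77 to 2.0 for *Nphs1*, 2.80 to 3.32 for *Fam71f1* and 2.45 to 2.85 for *1700001J03Rik* (median 2.93 to 3.35).

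Over all probes, 4484 were higher and 3405 lower at the unadjusted threshold. Unscaled arrays gave 1221 and 7287, the fixed slide block 1767 and 1102. Counts were 2728 higher at 1.5-fold, 1817 lower by the methods' t-test and 2214 lower with the slide as a random block. Leaving out arrays gave 2520 to 6641 higher and 1495 to 6409 lower. After adjustment 40 were higher, against 63 with the median shift, 19 without scaling, 19 with the filter for all arrays, 82 with trend and robust variances, 1 by the methods' t-test, 24 with the random block, 0 with the fixed block and 6 to 736 with an array left out. Of the 6 genes, 5 were among the adjusted calls, and 3 without scaling, 2 with normexp, 3 with trend and robust variances, 0 by the methods' t-test, 0 with the fixed block and 1 to 5 with an array left out. The filter for all arrays left 1 of the 6 genes, *1700001J03Rik*, which was called before and after adjustment (1 in each). The unadjusted call held for 6 of 6 genes with each array left out.

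The shared replicate numbers did not pair the samples, with correlations of -0.31, 0.10 and -0.31 between same-numbered arrays. With the number as a replicate block 1 probe and 0 of the 6 genes passed after adjustment, the 6 differences being equal by construction, as in *Tnn* with 3.50.

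The 95 probes detected only in *Khsrp*-/- became 114 to 391 and the 35 detected only in wild type 43 to 1034 with an array left out. With the mark for a signal significantly above the local background they were 70 and 32. By that mark *Zscan4e* and *Nphs1* were detected on every wild type array, and *Vmn1r198* and *Fam71f1* on some. Of the dim genes only *Tnn* kept the pattern. The local background difference with an array left out was 3.33 to 6.33 for *Vmn1r198*, 2.08 to 4.58 for *Zscan4e*, 3.33 to 6.33 for *Tnn*, 1.83 to 4.67 for *Nphs1*, 4.5 to 8.5 for *Fam71f1* and 2.5 to 4.5 for *1700001J03Rik*. On the shared slide it was -1 for *Vmn1r198*, -1 for *Zscan4e*, -2 for *Nphs1*, 0 for *Fam71f1* and 0 for *1700001J03Rik*. The causes were not tested.

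The signal over background limits 5 of the genes, whose wild type values are bounds and not levels.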
